A study of Drosophila melanogaster with 12 samples.

Results

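The transcripts described here are those with strongly female-biased expression in whole virgin flies: their mean log2 expression value over the 6 female arrays exceeded the mean over the 6 male arrays by at least 4, which is at least 16-fold. Of 16637 transcripts on the array, 202 met this rule. The members were chosen by their measured female and male levels, so the sex difference and the residual level in males are given as a description, without a test. Arrays of all 12 samples are from Drosophila melanogaster, the fruit fly, in 4 groups of 3: virgin females and virgin males of 3 populations kept under monogamy, and virgin females and virgin males of 3 populations kept under polygamy. Each population contributed 1 female and 1 male array. All groups shared an age of 4 days, the genetic background labelled IV, a standard cornmeal medium and 65 generations of experimental evolution, and the RNA was taken from the whole organism. The number of flies pooled into a sample is not given in the sources used here.

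In adult female flies the ovary makes up a large part of the body, and its germ cells load the egg with messenger RNA while the surrounding follicle cells secrete the eggshell. The fat body and the follicle cells of females also make yolk proteins, and the sperm storage organs and their glands are further tissues that males lack. Strongly female-biased expression in whole flies is known to come largely from such reproductive tissues, as strongly male-biased expression is known to come from the testis and the accessory glands. In whole-fly RNA a smaller number of cells of a type and less RNA per cell cannot be told apart. The deposited table identifies transcripts by FlyBase transcript identifiers and pairs none with a gene. Genes could be assigned to 44 of the 16637 identifiers through RefSeq (assembly Release 6), and 0 of these belonged to the 202. The members are therefore named by identifier, no role is given to any of them, and the marker lists for yolk, eggshell, germline, reproductive tract, testis and accessory gland could not be evaluated.

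Values are log2 expression values as deposited, and the precision of each comparison is limited by 3 arrays per group. The median of all transcripts lay between 10.11 and 10.28 on 11 arrays and at 9.87 on the array of polygamy female 3. On that array the 5th percentile of all transcripts was 5.42, against 4.30 to 4.43 on the other female arrays. The array of monogamy male 1 stood apart from the other males in the transcripts described here, and results that rest on it are given with and without it.

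The 202 transcripts were well expressed in females. Their median level was 11.28, 11.40 and 11.53 in monogamy females 1, 2 and 3 and 11.55, 11.50 and 11.42 in polygamy females 1, 2 and 3. The 6 female medians lay within a narrow range and above the median of all transcripts on each array. Of the 202, 115 were above the array median in all 6 females, 46 were above the 75th percentile in all 6, and 13 were above the array median in none. The set therefore held abundant transcripts as well as transcripts below the middle of the female range. In males the median level of the same transcripts was 8.24, 5.69 and 5.75 in monogamy males 1, 2 and 3 and 5.54, 6.12 and 5.60 in polygamy males 1, 2 and 3. A single male array, monogamy male 1, was high, and the other 5 lay close together.

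**Figure D1:**
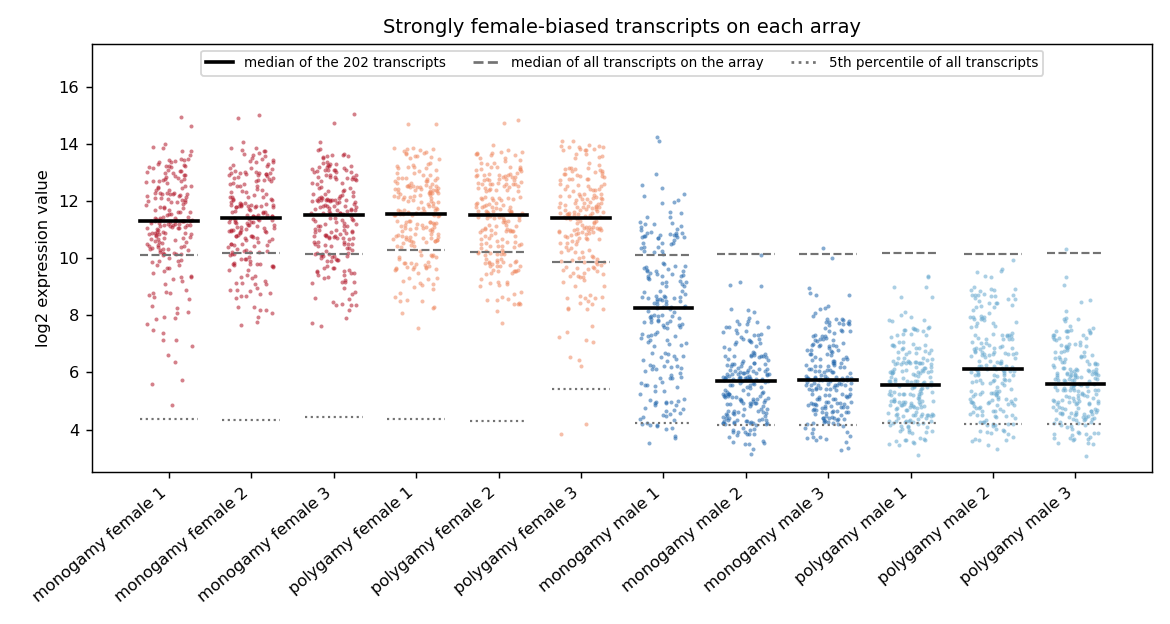
Log2 expression values (y axis) of the 202 strongly female-biased transcripts on each of the 12 arrays (x axis); each point is 1 transcript, the black line is the median of the 202, and the dashed and dotted grey lines are the median and the 5th percentile of all 16637 transcripts on that array. The medians of the females lie between 11.28 and 11.55, that of monogamy male 1 at 8.24, and those of the other males between 5.54 and 6.12.

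The female minus male difference had a median of 4.87 and reached 8.14. It was at least 5 for 91 transcripts, at least 6 for 37 and at least 7 for 6. FBtr0076573 had the largest difference. It stood at 13.43, 13.77 and 13.61 in monogamy females and at 12.57, 12.64 and 13.35 in polygamy females, against 6.28, 5.01 and 5.08 in monogamy males and 4.51, 4.93 and 4.73 in polygamy males. The sexes were far apart on every array, and monogamy male 1 was the highest male. FBtr0081241 followed, with a difference of 7.52. Its female values ran from 11.60 through a median of 12.65 to 12.72, and its male values from 4.74 through a median of 4.97 to 5.06. The male values of this transcript had an SD of 0.12 (n = 6), and monogamy male 1 was the lowest of them.

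At the threshold of 4, the last members inside were FBtr0075873 and FBtr0083525, both with a difference of 4.02, and the first transcripts outside were FBtr0080520 at 4.00 and FBtr0087562 at 3.99. FBtr0080520 had a female mean of 8.16 and a male mean of 4.16, and FBtr0087562 had 11.17 and 7.18. The 2 members just inside had female means of 9.63 and 7.88, below the median of all transcripts on every female array.

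Every female lay above every male in 184 of the 202 transcripts, and over all transcripts this held for 19.0%. The rule used this contrast, so nothing is read from that count. In all 18 remaining transcripts the highest male was monogamy male 1 and the lowest female was polygamy female 3. Without polygamy female 3 the number with overlapping sexes was 0, and without monogamy male 1 it was 2. Over all transcripts, every female lay above every male in 26.4% without polygamy female 3 and in 22.3% without monogamy male 1.

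The residual level in males was low on the array. Outside monogamy male 1 it lay mostly below the 25th percentile and above the 5th percentile. The mean over the 6 males had a median of 6.07 over the 202 transcripts, from 3.58 to 10.49, and without monogamy male 1 that median was 5.69. In the other 5 males the median member ranked between the percentiles 12.0 and 15.6 of its array, and in monogamy male 1 it ranked at 31.3. Between 14 and 24 of the 202 lay below the 5th percentile of the array in those 5 males, and 9 did in monogamy male 1. All 5 of these males were below the 25th percentile of their arrays for 154 transcripts and below the array median for 201. No detection calls were used here, so a value near the lower end may not be above background, and the sex difference of such a transcript is then uncertain in size.

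The residual level differed among the members. The rule fixes the smallest distance between the female and the male mean, so nothing is read from how these levels vary together. The highest male means belonged to FBtr0073821 and FBtr0071419, which were also the brightest members in females, with female means of 14.70 and 14.67. FBtr0073821 stood at 14.11, 10.13 and 10.02 in monogamy males and at 9.37, 9.95 and 9.34 in polygamy males. FBtr0071419 stood at 14.24, 9.16 and 10.36 in monogamy males and at 9.34, 9.33 and 10.33 in polygamy males. In both, 5 males lay near the array median, and monogamy male 1 lay above the lowest female, which was polygamy female 3 with 13.84 and 14.11.

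At the other end, FBtr0077130 and FBtr0083412 had the lowest male means. FBtr0077130 ranged from 3.27 through a median of 3.53 to 3.84 in males, below the 5th percentile of each male array, and from 5.73 through 8.37 to 9.07 in females. FBtr0083412 ranged from 3.06 through a median of 3.22 to 5.81 in males and from 9.34 through 9.83 to 10.41 in females. The lowest female of FBtr0077130 was monogamy female 1, and the highest male of FBtr0083412 was monogamy male 1. The dimmest members in females were FBtr0091658, with a mean of 7.86, and FBtr0083525, with a mean of 7.88.

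Monogamy male 1 held the highest male value in 166 of the 202 transcripts. Its excess over the median of the other 5 males had a median of 2.39 on the log2 scale, with quartiles of 0.89 and 3.66 and a range from -1.80 to 7.06. The corresponding median for each of the other males, taken against the remaining 5, lay between -0.25 and 0.41, and the higher end belonged to polygamy male 2. The excess was over 1 for 147 transcripts, over 3 for 74 and over 5 for 20, while it was below 0 for 21. Of the 202, 49 lay above the array median in monogamy male 1, although 201 lay below it in all of the other 5 males.

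The largest excess belonged to FBtr0077804, which stood at 11.46 in monogamy male 1, at 4.39 and 4.23 in monogamy males 2 and 3, and at 4.39, 4.74 and 4.12 in polygamy males. Its female values were 13.16, 13.31 and 12.92 under monogamy and 12.91, 12.74 and 12.19 under polygamy. FBtr0077802 stood at 10.86 in monogamy male 1 and between 4.02 and 4.90 in the other males, and its female values ran from 12.08 through a median of 12.42 to 12.78. These 2 transcripts had the largest SD over the males, 2.90 and 2.63 (n = 6 each). Without monogamy male 1 their female minus male differences were 8.50 and 7.96, in place of 7.32 and 6.90.

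The excess was not uniform, and a few of the brightest members showed little or none. Expressed as a share of the female median after conversion from log2, it had a median of 10.3%, with quartiles of 2.16% and 19.4% and a maximum of 69.3%. Of the 66 transcripts with a female mean of at least 12, 45 had an excess over 3. These 45 lay a median of 1.70 below the female mean in monogamy male 1. Another 8 of the 66 had an excess of at most 1.5, a limit that was chosen after the values were seen. Among these 8 were FBtr0076573 and FBtr0081241, the members with the largest sex differences, with an excess of 1.34 and -0.26. Of the 8, only FBtr0081241 and the transcript with the next identifier (-0.45) had an excess below 0, and the others lay between 0.65 and 1.34. Further members of the 8 also carried consecutive identifiers, so the 8 are not counted as separate genes. In members of similar female level, monogamy male 1 thus held values from the bottom of the male range to near the female range.

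**Figure D2:**
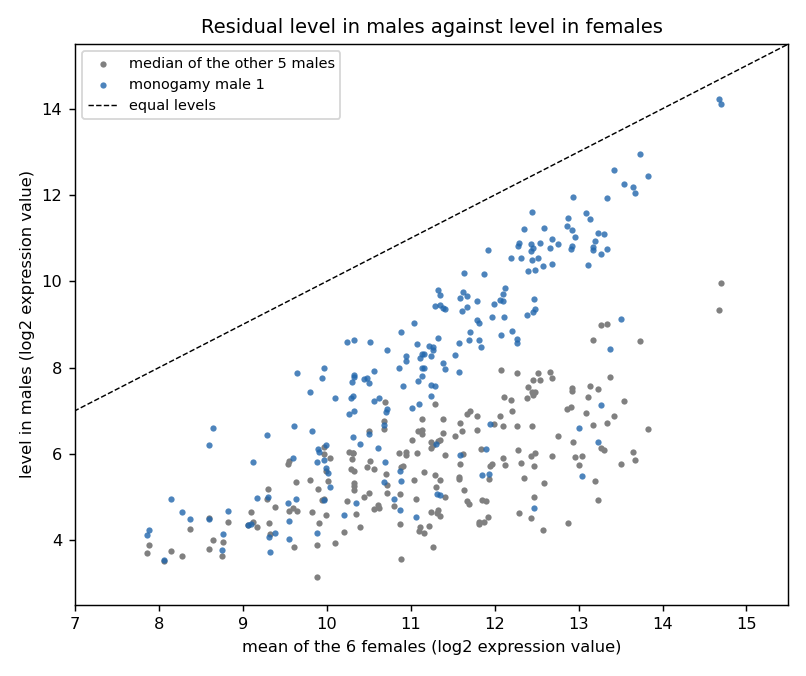
Level in males (y axis) against the mean of the 6 females (x axis), both as log2 expression values, for the 202 transcripts; grey points are the median of the 5 males other than monogamy male 1, blue points are monogamy male 1, and the dashed line marks equal levels. Most blue points lie above the grey ones, by a median of 2.39, and a few with high female levels lie among the grey points.

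Other sets of transcripts on the same array are given beside this result. In monogamy male 1, the 1263 transcripts with a female minus male difference of 2 to under 4 had a median excess of 0.45, and the 3371 with a difference of 1 to under 2 had 0.28. The 1328 transcripts that were higher in males by at least 4 had a median excess of -0.30 and a median level of 11.31, against 11.68 to 11.87 in the other males. The 718 transcripts with a median under 5 in each sex had a median excess of 0.16, and all transcripts had 0.10. The part of sample composition in the excess was not tested. Across the 202 transcripts the excess correlated with the female levels at a Pearson r of 0.69, 0.65 and 0.66 in monogamy females 1, 2 and 3 and of 0.43, 0.55 and 0.17 in polygamy females 1, 2 and 3. It correlated with the median of the other 5 males at 0.11 and with the excess of polygamy male 2 at 0.61. All these points share the same transcripts and the normalization of the arrays. The rule sets the female mean against a male mean that includes monogamy male 1. It therefore ties the excess to the female level, and nothing is read from the correlations with the female levels.

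Among females the members differed most in monogamy female 1 and polygamy female 3. Monogamy female 1 was the lowest female for 68 transcripts and polygamy female 3 for 71, against 2 to 27 for each of the other females. The same arrays were also most often the highest female, for 50 and 56 transcripts, against 12 to 45 for each of the others. These counts were not made over all transcripts, so they are not read as particular to the members. The SD over the 6 females had a median of 0.60, against 0.67 over all transcripts, and the SD over the 6 males had a median of 1.02, against 0.38. Without monogamy male 1 the male SD had a median of 0.43, against 0.31 over all transcripts. The larger spread of the members among males was thus mostly that of 1 array. Over the members, monogamy females correlated with each other at 0.92 to 0.97, polygamy female 3 correlated with the other females at 0.45 to 0.70, and the males other than monogamy male 1 correlated with each other at 0.78 to 0.95.

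FBtr0071052 had the largest SD over females, 2.70 (n = 6). It stood at 11.18, 10.78 and 10.82 in monogamy females, at 10.13 and 10.78 in polygamy females 1 and 2, and at 4.18 in polygamy female 3, below every male. FBtr0087684 stood at 10.12, 9.58 and 9.66 in monogamy females, at 9.11 and 9.57 in polygamy females 1 and 2, and at 3.83 in polygamy female 3. Both values of polygamy female 3 were below the 5th percentile of its array, although dim transcripts lay higher on that array than on the others. In polygamy female 3, the 1328 transcripts that were higher in males by at least 4 had a median level of 7.94 and a median excess over the other females of 2.14, and in the other females their median level lay between 5.31 and 6.46. The 718 transcripts low in both sexes had a median excess of 2.20 in that array, against -0.03 for the 202. The part of these shifts in the low values was not tested. In monogamy male 1 these transcripts stood at 7.87 and 6.59, the highest male value of each.

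The order of the females went with the excess in monogamy male 1. The groups of transcripts in this paragraph were formed from the values, so they are a description without a test. The 41 transcripts with an excess of at most 0.5 had a median level of 8.78, 9.40 and 9.56 in monogamy females 1, 2 and 3 and of 10.75, 9.98 and 10.90 in polygamy females 1, 2 and 3. Of these 41, 35 had a lower mean in monogamy than in polygamy females. The 74 transcripts with an excess over 3 had a median level of 12.44, 12.55 and 12.55 in monogamy females and of 12.30, 12.51 and 12.01 in polygamy females, and 16 of the 74 had a lower mean in monogamy females. In these groups the members without an excess were mostly lower under monogamy, and those with a large excess were mostly higher under monogamy. The latter were also brighter in females. The male mean in the rule includes monogamy male 1, so a large excess requires a higher female level or lower other males. Nothing is therefore read from the difference in brightness.

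**Figure D3:**
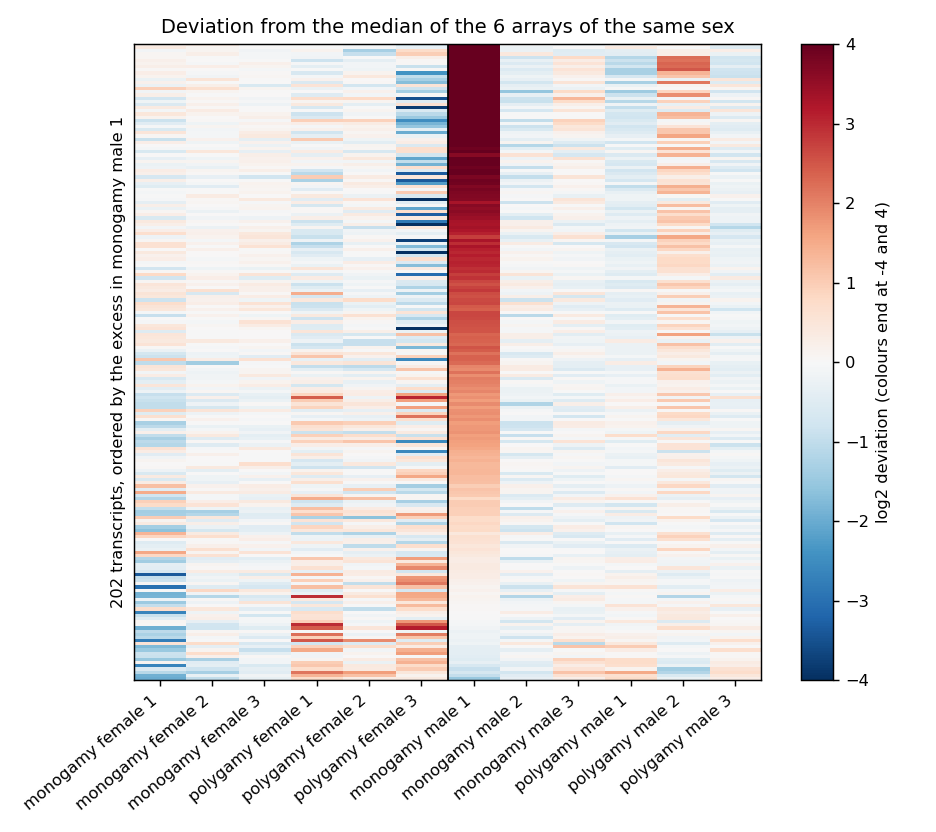
Deviation of each of the 202 transcripts (rows) from its median over the 6 arrays of the same sex (colour, log2 scale, ending at -4 and 4) on each array (columns, females left of the line), with rows ordered by the excess in monogamy male 1. Monogamy male 1 is high in most rows, polygamy female 3 has its strongly low values mainly in the upper rows, and monogamy female 1 is low mainly in the lower rows.

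The comparison of regimes in females asks whether strongly female-biased transcripts changed under monogamy, which removes competition between males for mates. This contrast was not used by the rule. In females, 0 of the 202 transcripts passed (limma over all transcripts and arrays, Benjamini-Hochberg adjusted p under 0.05), against 0.0601% of all transcripts. At an unadjusted p under 0.05 there were 42 members, or 20.8%, against 29.0% of all transcripts. Of the 42, 11 were higher under monogamy, or 5.45% of the members against 16.1% of all transcripts, and 31 were lower, or 15.3% against 12.9%. The fit shares 1 spread per transcript over the 4 groups, so the high values of monogamy male 1 also widen the SE in females. Where males vary less than females, the same sharing narrows the SE in females. For FBtr0077804 the SE in females was 1.49, although the female SDs were 0.20 under monogamy and 0.38 under polygamy. Members with a large excess in monogamy male 1 were mostly higher under monogamy, so nothing is read from these unadjusted counts. The regimes did not overlap in 79 members, or 39.1%, against 38.2% of all transcripts. In 40 of them, or 19.8% of the members against 23.2% of all transcripts, monogamy was higher, and in 39, or 19.3% against 15.0%, it was lower. Without polygamy female 3 the regimes did not overlap in 58 members with monogamy higher, or 28.7% against 34.9% of all transcripts, and in 58 with monogamy lower, or 28.7% against 23.2%. Counted in either direction, the regimes of the members separated about as often as those of all transcripts. The median difference, monogamy minus polygamy, was 0.05 over the members and 0.06 over all transcripts, and the members ranged from -3.10 to 2.56.

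The member with the smallest p that was lower under monogamy was FBtr0073286. It stood at 7.13, 8.28 and 8.60 in monogamy females and at 11.51, 9.57 and 12.23 in polygamy females. The regimes did not overlap, and the values within each regime were spread widely. The difference was -3.10 (SE 0.61, limma adjusted p = 0.123), and in males the transcript stood between 4.21 and 5.29. FBtr0077013 stood at 10.55, 10.76 and 11.41 in monogamy females and at 12.99, 12.37 and 13.59 in polygamy females, again without overlap. Its difference was -2.07 (SE 0.43, limma adjusted p = 0.125).

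In the other direction, FBtr0071896 stood at 9.37, 8.68 and 8.81 in monogamy females and at 7.57, 8.15 and 7.07 in polygamy females. Every monogamy female was above every polygamy female, and the difference was 1.35 (SE 0.37, limma adjusted p = 0.125). FBtr0072883 stood at 12.71, 11.28 and 11.74 in monogamy females and at 11.07, 10.81 and 10.51 in polygamy females, with a difference of 1.11 (SE 0.36, limma adjusted p = 0.125) that was 0.71 without monogamy female 1. None of these 4 passed in the fit of all arrays. Without polygamy female 2, 13 of the 202 passed, or 6.44%, against 12.5% of all transcripts, with 12 lower under monogamy, or 5.94% against 4.52%, and 1 higher, or 0.495% against 7.98%. That fit too shares its spread with monogamy male 1, so nothing is read from the balance of directions. FBtr0073286 (-3.87, limma adjusted p = 0.0131), FBtr0077013 (-2.38, limma adjusted p = 0.0380) and FBtr0071896 (1.63, limma adjusted p = 0.0429) were then past the threshold. Polygamy female 2 lay nearest to the monogamy females in each of these 3 transcripts. In a fit of all female arrays without the males, the limma adjusted p of each of these 3 was 0.186. That of FBtr0072883 was 0.216. Such a fit has fewer residual degrees of freedom.

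**Figure D4:**
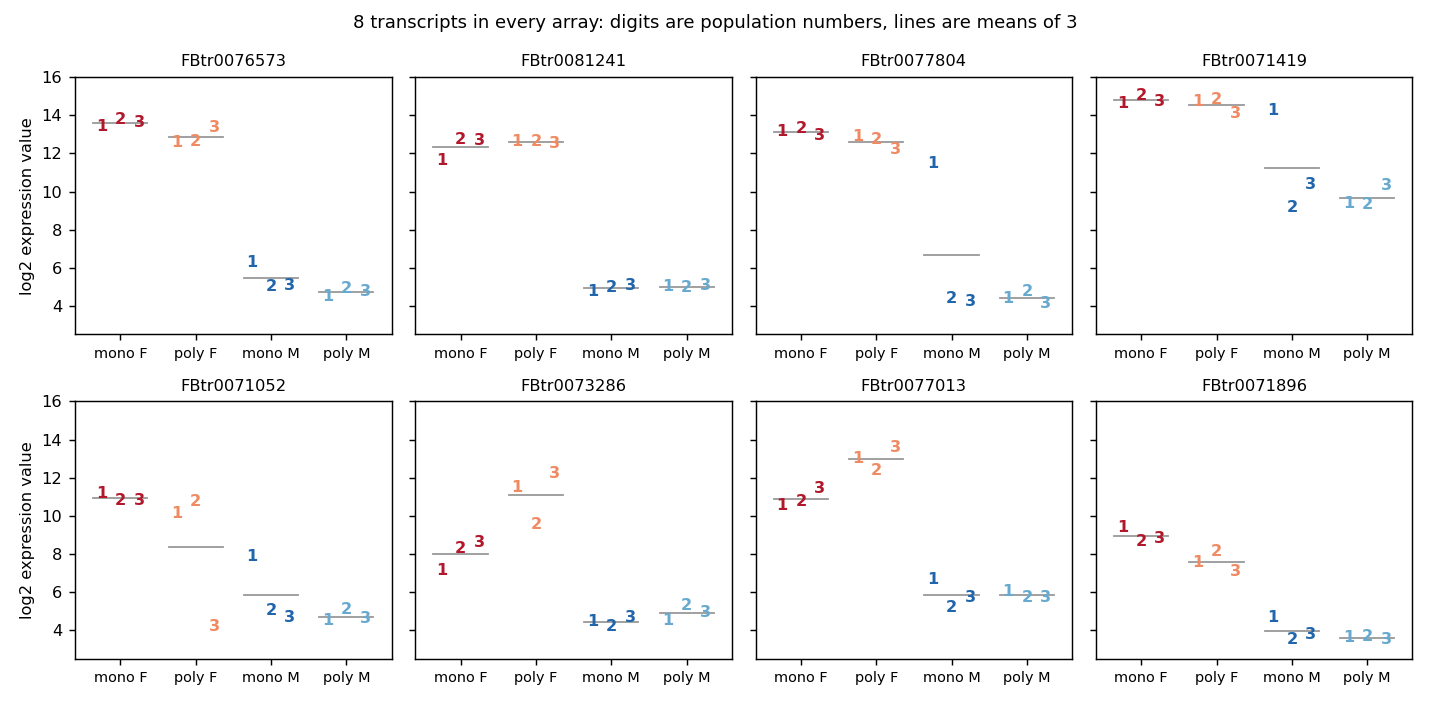
Log2 expression values (y axis) of 8 transcripts in every array, by group (x axis; mono, monogamy; poly, polygamy; F, females; M, males); each digit is the population number of 1 array and each grey line the mean of 3. FBtr0077804 and FBtr0071419 are high in monogamy male 1 (11.46 and 14.24), FBtr0071052 is low in polygamy female 3 (4.18), and FBtr0073286 and FBtr0077013 are lower in every monogamy female than in every polygamy female.

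In males, the same comparison concerns the residual level. None of the 202 passed (0, limma, against 0% of all transcripts), and none had an unadjusted p under 0.05 (0, against 1.32%). The regimes did not overlap in 7 members, or 3.47%, against 7.75% of all transcripts. Of these 7, 5 were higher under monogamy (2.48% of the members against 4.11% of all transcripts) and 2 were lower (0.990% against 3.64%). Without monogamy male 1 the regimes did not overlap in 5 with monogamy higher, or 2.48% against 6.22%, and in 10 with monogamy lower, or 4.95% against 5.66%. The median difference was 0.63 over the members and 0.02 over all transcripts, and 170 of the 202 were higher under monogamy. Without monogamy male 1 the median was -0.10 and 57 of the 202 were higher under monogamy, so the direction of the median rests on that array. The fit shares 1 spread per transcript over the 4 groups, and monogamy male 1 widened it for the members.

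The members with the smallest p in males were FBtr0073821 and FBtr0073839 among those higher under monogamy. FBtr0073839 stood at 9.18, 6.21 and 5.77 in monogamy males and at 5.70, 5.91 and 4.69 in polygamy males, a difference of 1.62 (SE 0.77, limma adjusted p = 1.0). That of FBtr0073821, whose values are given above, was 1.86 (SE 0.88, limma adjusted p = 1.0). In both, monogamy male 1 was the highest male, and without it the differences of FBtr0073839 and FBtr0073821 were 0.56 and 0.52. Among those lower under monogamy, FBtr0088492 stood at 4.03, 5.23 and 5.82 in monogamy males and at 6.31, 5.29 and 5.83 in polygamy males, a difference of -0.78 (SE 0.52, limma adjusted p = 1.0). Without monogamy male 1 it was -0.28, and without monogamy male 3 it was -1.18. FBtr0075003 stood at 4.48, 4.29 and 4.06 against 4.56, 4.94 and 4.52, a difference of -0.39 (SE 0.31, limma adjusted p = 1.0), and of -0.26 without polygamy male 2. FBtr0088492 was the member with the lowest excess in monogamy male 1, at -1.80.

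When the male and female values of a population were averaged, 0 of the 202 passed (limma, against 0% of all transcripts). At an unadjusted p under 0.05 there were 27, or 13.4%, against 15.1% of all transcripts. Of the 27, 8 were higher under monogamy, or 3.96% against 6.88%, and 19 were lower, or 9.41% against 8.21%. The median difference was 0.38 over the members and 0.04 over all transcripts, and without the population of monogamy male 1 it was -0.01. FBtr0073286 (-1.78, SE 0.37) and FBtr0077013 (-1.02, SE 0.28) had the smallest p among those lower under monogamy. FBtr0076573 (0.74, SE 0.24) and FBtr0083193 (1.18, SE 0.42) had the smallest p among those higher, and the difference of FBtr0083193 was 0.72 without the population of monogamy male 1. All 4 had a limma adjusted p of 0.318.

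The sex difference itself was compared between the regimes by the interaction of sex and regime. The female minus male difference had a median of 4.60 within monogamy and 5.28 within polygamy, and it was larger under polygamy for 162 of the 202 transcripts. It was at least 4 within both regimes for 155 transcripts. Without monogamy male 1 the median within monogamy was 5.45, and without polygamy female 3 that within polygamy was 5.41. The interaction did not pass for any of the 202 (0, limma, against 0% of all transcripts). At an unadjusted p under 0.05 there were 15 members, or 7.43%, against 3.56% of all transcripts. In 13 of the 15, or 6.44% of the members against 1.59% of all transcripts, the sex difference was smaller under monogamy, and in 2, or 0.990% against 1.98%, it was larger. Over the 202, the median interaction was 0.81, toward a smaller sex difference under monogamy, against -0.03 over all transcripts. Without monogamy male 1 it was -0.10 over the 202 and -0.06 over all transcripts. The direction of the median thus rests on that array. The counts of 162 and 13 include it and were not made without it, so how far they rest on it was not tested.

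FBtr0112446 had the smallest p of the interaction. It stood at 10.18, 10.20 and 11.29 in monogamy females and at 12.22, 12.12 and 11.78 in polygamy females, and at 6.22, 5.24 and 5.44 in monogamy males and 4.67, 5.32 and 4.66 in polygamy males. Its sex difference was 4.92 under monogamy and 7.16 under polygamy, an interaction of 2.24 (SE 0.53, limma adjusted p = 0.862), and of 1.94 without monogamy male 1. The interaction of FBtr0077013 was 2.10 (SE 0.61) with the same adjusted p of limma. It was 1.68 without monogamy male 1, and 1.38 without both monogamy male 1 and polygamy female 3. In the opposite direction, the sex difference of FBtr0081240 was 6.24 under monogamy and 5.28 under polygamy, and that of FBtr0085670 was 5.31 and 4.06, with interactions of -0.96 (SE 0.41) and -1.26 (SE 0.54) that did not pass (limma adjusted p = 0.862 for both).

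**Figure D5:**
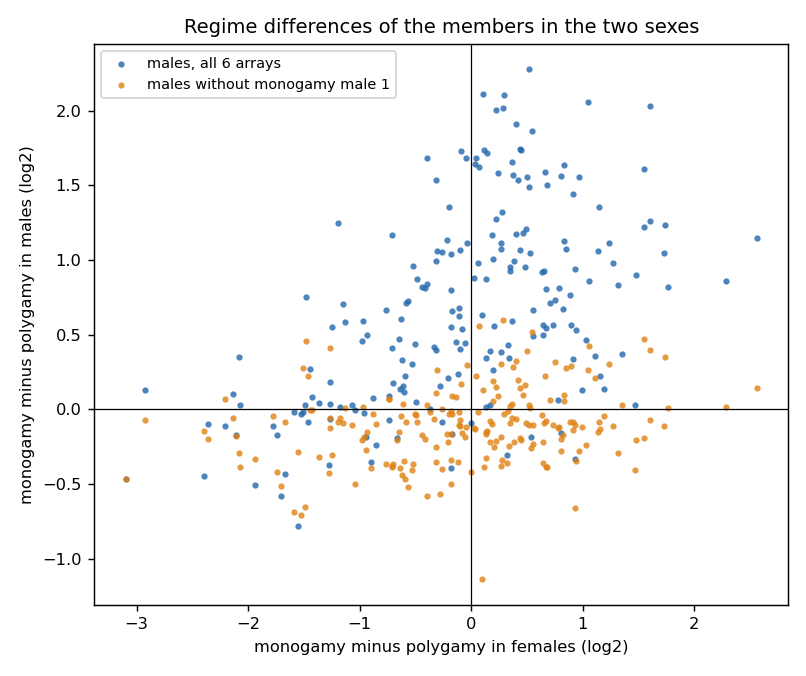
Monogamy minus polygamy difference in females (x axis) and in males (y axis), on the log2 scale, for the 202 transcripts; blue points use all 6 males and orange points leave out monogamy male 1. The male differences have a median of 0.63 with that array and -0.10 without it, and the female differences are centred near 0, with a median of 0.05.

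The members were not independent of each other. Among the 202, 49 carried an identifier that was 1 above or below that of another member, which gave 30 consecutive pairs. The table does not say whether such transcripts belong to 1 gene, to neighbouring genes or to neither. Over the 6 females, the levels of consecutive pairs correlated with a median Pearson r of 0.66, against 0.01 over all pairs of members. Their excess in monogamy male 1 differed by a median of 0.49, against 1.87 over all pairs. Consecutive transcripts were thus more alike than members taken at large, and counts of transcripts are not counts of genes.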

How the data were processed

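Labelled RNA (Cy3) of whole virgin flies was measured on single-colour NimbleGen arrays, 1 per sample, per the labels. The authors deposited a table of log2 expression values, with 1 row per transcript, and the submitters' processing notes name RMA. Which arrays RMA normalized together, its version and the annotation release are not stated in these sources. All 12 columns were matched to a sample, and arrays have no read depth. Populations are separate per the labels, so the spread behind each p-value is that among populations and their single arrays. The fit of the 4 groups pools this spread over both sexes and treats the male and female arrays of 1 population as independent.

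No filter or further normalization was applied. The 4 groups were fitted over all arrays with limma 3.58.1 (R 4.3.3, lmFit and eBayes), and p-values were adjusted by Benjamini-Hochberg over 16637 transcripts. The average over the sexes used population means. The fits were tested on simulated data. Members, lists and tests were chosen with earlier results of these data known. Named transcripts are the 2 with the largest sex difference and the 2 nearest the threshold on each side. They also include, in each sex, the 2 highest and the 2 lowest in mean level and the 2 with the largest SD. The last are the 2 with the smallest p in each direction of each regime comparison.

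Male and female arrays of 1 population share its subject label. Their deviations from the group means correlated over all transcripts at 0.53, -0.07 and 0.40 in the monogamy and 0.09, 0.07 and -0.18 in the polygamy populations. Fits with the population as a block were alternatives (statmod 1.5.0), beside other normalizations, a floor, a filter, another prior, fits of 1 sex and leaving out arrays.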

Additional observations from a re-analysis of the deposited data

Results flagged for a closer look

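For each set of 6 values of 1 sex, the array at either end was marked when its distance from its neighbour, as a share of the whole range, was above the critical value of Dixon's test. Of 54 sets of 6 values (the median of the members and each named transcript, in each sex), 18 held such an array, where chance gives about 1 in 20. The sets share arrays and many transcripts were named for an extreme value, so no test is drawn from how many there were. The median of the members (8.24) in monogamy male 1 stood apart from the other males. So did, in the same array, FBtr0077804 (11.46), FBtr0077802 (10.86), FBtr0071419 (14.24), FBtr0073821 (14.11), FBtr0073839 (9.18), FBtr0083193 (8.59), FBtr0071052 (7.87), FBtr0087684 (6.59), FBtr0076573 (6.28), FBtr0083412 (5.81), FBtr0071896 (4.65) and FBtr0087562 (8.62), the last of which lay just outside the threshold. In polygamy female 3 the transcripts FBtr0071052 (4.18), FBtr0087684 (3.83) and FBtr0073821 (13.84) stood apart from the other females, and in monogamy female 1 FBtr0081241 (11.60) and FBtr0077130 (5.73) did. All stood above the other males or below the other females. Over all 202 members, monogamy male 1 stood apart in 78 (38.6%, against 5.34% of all transcripts) and polygamy female 3 in 25 (12.4%, against 24.0%). Monogamy female 1 stood apart in 3 (1.49%, against 0.276%) and polygamy female 1 in 2 (0.990%, against 0.337%).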

How the results depend on the processing

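The number of members lay between 188 and 238 when each array was left out in turn, and was 238 without monogamy male 1, with 198 of the 202 shared. It was 450 at a threshold of 3 and 91 at a threshold of 5. The residual level in males ranged from 5.69 to 6.17 without each male array in turn. No member passed in any regime comparison under any alternative, except the 13 in females without polygamy female 2 (range over single arrays left out, 0 to 13). The median regime difference over members ranged, without each array in turn, from -0.02 to 0.10 in females, from -0.10 to 1.03 in males, from -0.01 to 0.63 averaged over the sexes (where the population of the array was left out) and, for the interaction, from -0.10 to 1.26. In females it was -0.13 after cyclic loess within each sex, where all transcripts had a median of 0.01, and the cause was not tested. With the population as a replicate block, 0 members passed in females, in males and in the interaction, and the median differences were 0.05, 0.63 and 0.81 as without it, so the block changed no call. Leaving out transcripts with a mean below 6 removed 3 of the 202. Of 344 differences of the named transcripts under alternatives, 341 kept direction and side of the threshold and 0 reversed. The other 3 passed the threshold only without polygamy female 2: FBtr0073286, FBtr0077013 and FBtr0071896. Arrays limit precision through their number, and dim male values limit the size of the sex difference.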
